A study of Mus musculus with 15 samples.

Results

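10 CC chemokine genes (Ccl2, Ccl3, Ccl4, Ccl6, Ccl7, Ccl8, Ccl9, Ccl11, Ccl17 and Ccl22) were followed in whole mouse lung after bleomycin, and each was taken by its gene symbol from a table of read counts that holds 33340 genes. Bleomycin is a DNA-damaging drug that injures the lung and is widely used to produce pulmonary fibrosis in mice. The 15 libraries came from lungs of C57BL/6 mice, which were male and 10 to 12 weeks old by the methods of the study. Lungs were taken at day 0 (n = 4) or at day 7 (n = 4), day 14 (n = 4) or day 21 (n = 3) after bleomycin was given into the trachea at 5 U/kg. These numbers follow the sample titles, whereas the design text of the series speaks of 3 replicates per time point. Day 0 replicate 4 has a control title but a treatment label that names the drug, and here it counts as day 0 because its title and time point say so. Day 0 lungs carry no vehicle treatment in their labels, so the drug and its instillation cannot be told apart. The study describes its RNA-seq replicates as biological, although no label ties a library to one animal, and the p-values measure the spread between these libraries. All 9 lung markers examined (Sftpc, Ager and Cdh5 among them) were counted in every library.

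CC chemokines are small secreted proteins that bind G protein-coupled receptors on leukocytes and draw those cells into tissue. Ccl2, Ccl7 and the related Ccl12 act mainly through Ccr2 on monocytes, mouse Ccl8 acts through Ccr8, and Ccl11 (eotaxin) acts through Ccr3 on eosinophils. Ccl3, Ccl6 and Ccl9 are ligands of Ccr1, and Ccl17 and Ccl22 of Ccr4 on T cells. In injured lung these genes are made chiefly by macrophages, dendritic cells and stromal cells.

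The members lie in clusters. In the mouse genome build GRCm38, 8 are on chromosome 11 and 2 on chromosome 8. Ccl2 (chr11:82035571-82037453), Ccl7, Ccl11 and Ccl8 share the plus strand of one stretch of chromosome 11, with 8258 bases between Ccl2 and Ccl7 and 10297 between Ccl7 and Ccl11. Ccl9 (chr11:83572919-83578636, minus strand) and Ccl6 (chr11:83587882-83593087, minus strand) are 9245 bases apart in a second stretch that also holds Ccl3 and Ccl4. Ccl22 (chr8:94745590-94751699) and Ccl17 (chr8:94810453-94812036), both on the plus strand, are 58753 bases apart with Cx3cl1 between them.

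RefSeq promoter windows on GRCm38.p6 (250 bases before to 50 after the start) were at hand for 6 members: Ccl3, Ccl6, Ccl8, Ccl9, Ccl17 and Ccl22. The sequences before the annotated start are printed for Ccl17 with Ccl22 and for Ccl6 with Ccl9, whose levels are set side by side in the results. Capitals mark matches to 1 of 6 motifs searched on both strands. These were NF-kappaB by its usual consensus, STAT as TTC and GAA around 4 bases of any kind, ISRE as GAAA given again after 2 bases of any kind, AP-1 as TGANTCA, ETS as AGGAAG and TATA as TATAAA.
Ccl17, chr8:94810203-94810452, plus strand: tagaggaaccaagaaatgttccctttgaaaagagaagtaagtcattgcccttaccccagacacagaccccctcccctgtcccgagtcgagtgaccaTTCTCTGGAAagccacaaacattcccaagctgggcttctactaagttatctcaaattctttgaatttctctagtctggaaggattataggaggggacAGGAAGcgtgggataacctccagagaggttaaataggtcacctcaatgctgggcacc
Ccl22, chr8:94745434-94745589, plus strand: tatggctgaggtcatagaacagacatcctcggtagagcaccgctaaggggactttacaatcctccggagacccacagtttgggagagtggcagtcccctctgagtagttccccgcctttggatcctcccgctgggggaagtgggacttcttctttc
Ccl6, chr11:83593088-83593337, minus strand: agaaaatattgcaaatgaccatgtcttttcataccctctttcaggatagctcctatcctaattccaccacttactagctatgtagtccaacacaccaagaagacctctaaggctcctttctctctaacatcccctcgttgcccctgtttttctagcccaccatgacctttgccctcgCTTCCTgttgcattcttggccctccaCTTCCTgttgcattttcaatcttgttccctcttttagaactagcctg
Ccl9, chr11:83578637-83578886, minus strand: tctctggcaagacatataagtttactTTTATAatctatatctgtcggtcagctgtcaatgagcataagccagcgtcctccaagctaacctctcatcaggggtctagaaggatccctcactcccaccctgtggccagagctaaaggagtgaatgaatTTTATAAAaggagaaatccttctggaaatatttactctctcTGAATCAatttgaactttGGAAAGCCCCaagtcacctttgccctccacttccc
Ccl17 held a STAT match whose first base was 154 bases before the RefSeq start and an ETS match at 57 bases. The printed Ccl22 stretch ends at its GENCODE start, upstream of the RefSeq start, and holds no match, while the rest of its window held an ETS match at 17 bases. Ccl6 held ETS matches at 73 and 47 bases. Ccl9 held an NF-kappaB match at 35 bases, an AP-1 match at 53 bases and TATA matches at 224, 94 and 92 bases, the last 2 of which overlap on opposite strands. Over 32851 RefSeq windows of this length, 8.46% held the NF-kappaB motif, 6.95% STAT, 7.81% AP-1, 35.4% ETS, 3.44% ISRE and 13.6% TATA. Over the whole windows, which run past the printed stretches, the longest common run was 13 bases for Ccl6 and Ccl9 (gccctccacttcc) and 8 bases for Ccl17 and Ccl22 (agaccttc), against 7 to 10 bases for the other pairs of the 6 windows. A match is only a description of letters.

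The lung level of Ccl2, Ccl6, Ccl7, Ccl8 and Ccl9 rose after bleomycin and stayed up for 3 weeks. Ccl11, Ccl17 and Ccl22 stood highest at day 7 and were lower afterwards, though Ccl17 was still above day 0 at day 21. Ccl3 stood above day 0 at days 14 and 21, and Ccl4 overlapped day 0 on every day. Levels are given as CPM, the counts of a gene scaled to library size with edgeR's TMM factors. A gene was called when edgeR's quasi-likelihood test gave a Benjamini-Hochberg adjusted p under 0.05 over 17457 genes and the fold change was above 1.5. All 10 members passed the filter on low counts. At day 7, 8 of 10 members were called higher than day 0 and 0 lower, against 8.78% of all tested genes called higher and 7.36% lower. At day 14, 7 were higher and 1 was lower (all genes: 12% and 11.2%). At day 21, 7 were higher and 0 lower (all genes: 12.4% and 10.1%). The median log2 fold change of the members was 1.95 at day 7, 1.70 at day 14 and 1.43 at day 21, while over all tested genes it was 0.01, 0.02 and 0.02. These 3 comparisons share their day 0 libraries. The members were chosen with earlier results of these data known, so their counts are not an independent comparison with all genes. Of the other CC chemokines, 8 were tested, and 2 were called higher and 1 lower at day 7. In whole lung, more cells of a type and more RNA per cell cannot be told apart. Library totals ran from 15652008 to 18020661 counts.

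**Figure D1:**
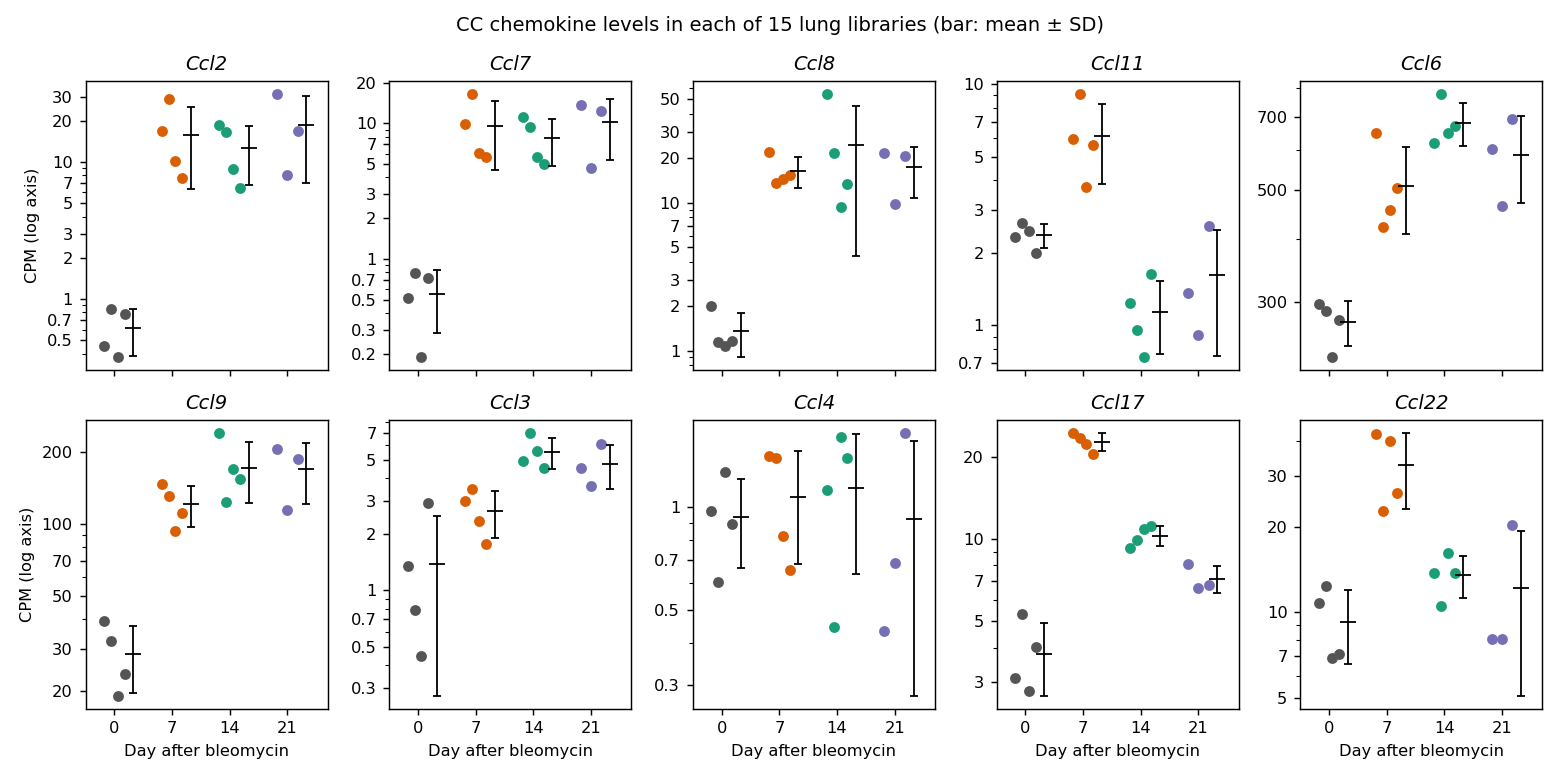
CPM (log axis) of each CC chemokine in every library by day after bleomycin, with points for libraries and a bar for the mean ± SD of each day. Ccl2, Ccl7, Ccl8, Ccl6, Ccl9 and Ccl17 sit above their day 0 points on all 3 later days. Ccl11, Ccl17 and Ccl22 are highest at day 7.

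Ccl2, Ccl7 and Ccl8 had the largest fold changes of the members. Ccl2, the main attractant of Ccr2-bearing monocytes, was near the lower end of detection at day 0, with 0.453, 0.846, 0.381 and 0.780 CPM in replicates 1 to 4 (6 to 14 counts). It was 16.7, 28.9, 10.2 and 7.66 CPM at day 7, 18.7, 16.4, 8.97 and 6.51 CPM at day 14 and 31.3, 8.03 and 16.9 CPM at day 21. Every later library was above every day 0 library, and the libraries within each later day spread widely. The log2 fold change against day 0 was 4.66 ± 0.58 (SE, adjusted p = 8.48e-05) at day 7, 4.33 ± 0.58 (SE, adjusted p = 5.68e-05) at day 14 and 4.90 ± 0.60 (SE, adjusted p = 3.59e-05) at day 21 in edgeR's quasi-likelihood test. These are 25.3-fold, 20.1-fold and 29.8-fold. Without day 21 replicate 1, the highest library, the day 21 value was 4.28 on the log2 scale.

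Ccl7, the neighbour of Ccl2 and also a Ccr2 ligand, ranged over 0.190 to 0.785 CPM at day 0 (3 to 13 counts), 5.70 to 16.5 at day 7, 5.01 to 11.2 at day 14 and 4.67 to 13.7 at day 21. No later library overlapped day 0. Its log2 fold change was 4.08 ± 0.51 (SE, adjusted p = 8.48e-05), 3.79 ± 0.51 (SE, adjusted p = 5.74e-05) and 4.18 ± 0.52 (SE, adjusted p = 4.5e-05) on the same days by edgeR. Across the 11 libraries after bleomycin the ratio of Ccl2 to Ccl7 CPM stayed between 1.30 and 2.28, although Ccl2 itself ran from 6.51 to 31.3 CPM.

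Ccl8 was 2.01, 1.15, 1.08 and 1.17 CPM at day 0. It was 22.1, 13.7, 14.4 and 15.4 CPM at day 7, 54.2, 21.7, 9.37 and 13.5 CPM at day 14 and 21.8, 9.85 and 20.6 CPM at day 21. All later libraries were above day 0, and day 14 replicate 1 was the highest of all 15. The log2 fold change was 3.60 ± 0.51 (SE, adjusted p = 0.000233) at day 7, 4.19 ± 0.51 (SE, adjusted p = 2.71e-05) at day 14 and 3.69 ± 0.52 (SE, adjusted p = 0.000122) at day 21 (edgeR). Without day 14 replicate 1 the day 14 value was 3.43, still called, and in the fit that adjusts for mitochondrial share the day 7 value was 2.92, also still called.

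**Figure D2:**
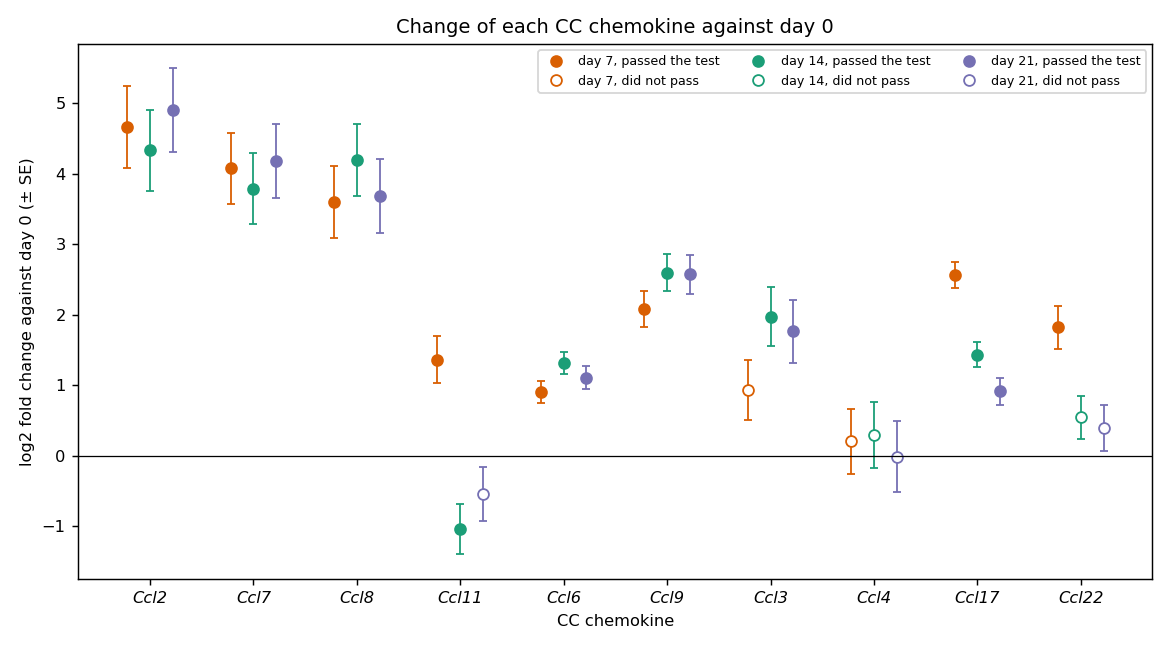
log2 fold change against day 0 for each CC chemokine at days 7, 14 and 21, with SE bars; filled points passed the test and open points did not. Ccl2 reaches 4.90 at day 21, Ccl4 stays between -0.02 and 0.29, and Ccl11 lies at 1.36, -1.05 and -0.55.

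Ccl6 and Ccl9, a rodent pair of Ccr1 ligands, had the highest CPM of the members, without scaling for gene length. They rose by smaller factors than Ccl2, Ccl7 and Ccl8. Ccl6 was 273 ± 27.9 CPM (SD, n = 4) at day 0, 509 ± 100.3 CPM (SD, n = 4) at day 7, 679.5 ± 67.8 CPM (SD, n = 4) at day 14 and 588 ± 116 CPM (SD, n = 3) at day 21. Its day 0 libraries ended at 297 CPM and the lowest later library stood at 423 CPM. The fold change was 1.86, 2.49 and 2.15 (adjusted p = 0.000982, 2.03e-05 and 0.000178, edgeR). Ccl6 overlaps an antisense transcript, E230016K23Rik (7 to 40 counts), without sharing exon bases, and the library kit does not mark strand.

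Ccl9 was 39.1, 32.3, 19.1 and 23.5 CPM at day 0. It was 147, 131, 93.6 and 111 CPM at day 7, 240.0, 123, 169.9 and 155 CPM at day 14 and 206, 114 and 188 CPM at day 21, with no overlap between day 0 and any later day. Its log2 fold change was 2.08 ± 0.26 (SE, adjusted p = 8.48e-05), 2.59 ± 0.26 (SE, adjusted p = 5.86e-06) and 2.57 ± 0.27 (SE, adjusted p = 1.24e-05) by edgeR. The ratio of Ccl9 to Ccl6 CPM was 0.0818 to 0.132 at day 0 and 0.159 to 0.387 at the later days.

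The neighbours Ccl3 and Ccl4, both made by activated macrophages and lymphocytes, differed. Ccl3 was 1.36, 0.785, 0.444 and 2.95 CPM at day 0 and 3.0, 3.51, 2.36 and 1.78 CPM at day 7. It was 4.96, 6.95, 5.60 and 4.52 CPM at day 14 and 4.51, 3.64 and 6.11 CPM at day 21. Day 7 overlapped day 0, whereas every library of days 14 and 21 was above day 0. On the log2 scale the change was 0.93 ± 0.42 (SE, adjusted p = 0.118) at day 7, which was not called, 1.97 ± 0.42 (SE, adjusted p = 0.00227) at day 14 and 1.76 ± 0.44 (SE, adjusted p = 0.00734) at day 21 (edgeR). Day 0 replicate 4, the library whose treatment label names bleomycin, was the highest of its group in Ccl3. Without it the 3 values were 1.60 (adjusted p = 0.0101, edgeR), 2.65 and 2.43, and 9 members were called at day 7. In the libraries with a mitochondrial share over 3.5% (2 at day 0 and 3 at day 14) the day 14 value of Ccl3 was 1.70 and was not called (adjusted p = 0.0915, edgeR).

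Ccl4 was not called on any day. It ranged over 0.604 to 1.27 CPM at day 0, 0.653 to 1.41 at day 7, 0.446 to 1.60 at day 14 and 0.432 to 1.65 at day 21, and all groups overlapped. The log2 fold change was 0.20 ± 0.46 (SE, adjusted p = 0.784), 0.29 ± 0.46 (SE, adjusted p = 0.661) and -0.02 ± 0.51 (SE, adjusted p = 0.984) by edgeR. With 7 to 28 counts a library and an SE of 0.46 to 0.51, changes of the size seen for Ccl6 could be missed at this depth. The sign of the day 21 value turned without day 0 replicate 3, day 21 replicate 1 or day 21 replicate 2.

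Ccl11, which draws eosinophils through Ccr3, rose at day 7 and then fell below its starting level. It was 2.33, 2.66, 2.47 and 2.01 CPM at day 0 and 5.94, 9.09, 3.73 and 5.58 CPM at day 7. It was 1.24, 0.956, 0.743 and 1.63 CPM at day 14 and 1.36, 0.911 and 2.59 CPM at day 21. All 4 libraries of day 7 were above day 0, all 4 of day 14 were below it, and 2 of the 3 at day 21 were below it. The log2 fold change against day 0 was 1.36 ± 0.33 (SE, adjusted p = 0.00879) at day 7, -1.05 ± 0.36 (SE, adjusted p = 0.0331) at day 14 and -0.55 ± 0.38 (SE, adjusted p = 0.297) at day 21, the last not called (edgeR). In the fit that adjusts for mitochondrial share the day 7 value was 1.13 and was not called (adjusted p = 0.0994, edgeR). The day 14 call rests on 13 to 27 counts a library and was lost in 6 of 8 fits without 1 library (replicates 1, 2 or 3 of either day, with adjusted p up to 0.0853 by edgeR).

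Ccl17 and Ccl22, ligands of Ccr4 that dendritic cells and macrophages release to attract T cells, shared a peak at day 7. Ccl17 was 3.10, 5.32, 2.79 and 4.01 CPM at day 0 and 24.4, 23.4, 22.3 and 20.4 CPM at day 7. It was 9.27, 9.88, 10.9 and 11.2 CPM at day 14 and 8.09, 6.60 and 6.82 CPM at day 21. No library of any day overlapped another day, in the order day 0, day 21, day 14, day 7. Its log2 fold change was 2.57 ± 0.18 (SE, adjusted p = 8.09e-07), 1.43 ± 0.18 (SE, adjusted p = 3.39e-05) and 0.91 ± 0.19 (SE, adjusted p = 0.00233) on days 7, 14 and 21 (edgeR). Its day 7 value had the smallest adjusted p of the members.

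Ccl22 was 10.7, 12.3, 6.91 and 7.13 CPM at day 0 and 42.4, 22.6, 39.8 and 26.3 CPM at day 7. It was 13.7, 10.5, 16.1 and 13.7 CPM at day 14 and 8.09, 8.08 and 20.3 CPM at day 21. Day 7 stood above every other library of the series, while days 14 and 21 overlapped day 0. On the log2 scale the change was 1.82 ± 0.31 (SE, adjusted p = 0.000843) at day 7, 0.54 ± 0.30 (SE, adjusted p = 0.185) at day 14 and 0.39 ± 0.33 (SE, adjusted p = 0.395) at day 21, and only the first was called (edgeR). Among libraries with a mitochondrial share over 3.5% the day 14 value was 0.92 and was called (adjusted p = 0.0288, edgeR). Without day 21 replicate 3, the high library of that day, the day 21 value was -0.24. The ratio of Ccl22 to Ccl17 CPM was 1.78 to 3.46 at day 0, 0.964 to 1.79 at day 7, 1.07 to 1.48 at day 14 and 1.0 to 2.98 at day 21, so days 7 and 21 overlapped day 0.

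Between the later days only these 3 members were called, all lower than at day 7. At day 14 the log2 fold change against day 7 was -2.41 ± 0.35 (SE, adjusted p = 0.00378) for Ccl11, -1.14 ± 0.17 (SE, adjusted p = 0.00391) for Ccl17 and -1.28 ± 0.30 (SE, adjusted p = 0.0222) for Ccl22 (edgeR), where 3.23% of all genes were called lower. At day 21 it was -1.91 ± 0.38 (SE, adjusted p = 0.0068), -1.66 ± 0.19 (SE, adjusted p = 0.000323) and -1.43 ± 0.33 (SE, adjusted p = 0.0144) in the same order (edgeR), against 4.34% of all genes. The Ccl22 difference did not pass in the fit that adjusts for mitochondrial share (-0.81 with adjusted p = 0.296 at day 14 and -1.06 with adjusted p = 0.0897 at day 21, edgeR), nor without day 7 replicate 1, day 7 replicate 3 or day 14 replicate 2 at day 14, or day 21 replicate 1 or 2 at day 21. Without day 21 replicate 3 it was -2.04 at day 21. The other 7 members had log2 differences of -0.33 to 1.04 at day 14 and -0.22 to 0.83 at day 21 against day 7. The upper ends belong to Ccl3, whose adjusted p was 0.118 and 0.202 (edgeR). Between days 14 and 21 edgeR called 0 of 17457 genes, with 1714 at an unadjusted p under 0.05 and 106 called by DESeq2, and no member. Ccl17 had the smallest unadjusted p of the members there (0.0138), with a log2 difference of -0.52 ± 0.19 (SE, adjusted p = 0.399).

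Levels of different members were compared as CPM per kilobase of annotated exon. Ccl6 led on every day, with 152 CPM per kilobase before treatment and 283, 379 and 327 on days 7, 14 and 21. Ccl9 followed at day 0 with 9.36, then Ccl17 with 7.40 and Ccl22 with 3.99. Ccl2 stood last at day 0 with 0.540 and 4th at day 21 with 16.5. At day 7 Ccl17 (44.0) and Ccl9 (39.7) were close, followed by Ccl8 (32.1), and the libraries of Ccl17 and Ccl9 overlap on this scale. Of the 9 neighbouring pairs in the order of levels, 7 overlapped at days 0 and 21 and 6 at days 7 and 14, so only a few steps of each order exceed the spread between libraries. Ccl6 stood clear of the next member on every day, and Ccl17 clear of Ccl22 at day 0, Ccl8 clear of Ccl22 and Ccl3 clear of Ccl4 at day 7, Ccl17 clear of Ccl2 and Ccl22 clear of Ccl4 at day 14, and Ccl22 clear of Ccl11 at day 21. Ccl6 and Ccl9 together made up 87.7% to 89.6% of the summed level per kilobase of the 10 members in day 0 libraries, 66.1% to 75.4% at day 7, 71.5% to 85.4% at day 14 and 78.0% to 84.3% at day 21. The sum itself went from 152 to 199 CPM per kilobase at day 0 to 399 to 558 at day 7, 490.3 to 594 at day 14 and 351 to 554 at day 21, with no overlap between day 0 and later days.

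The members also differed in how they varied from library to library. Over the 15 libraries, which share the time course, Pearson's r of log2 CPM ran from -0.37 (Ccl3 with Ccl11) to 0.99 (Ccl2 with Ccl7), with a median of 0.51 over 45 pairs. Ccl8 with Ccl9 (0.95), Ccl6 with Ccl9 (0.93) and Ccl17 with Ccl22 (0.83) were among the 14 pairs over 0.8. After the mean of each day was removed the median was 0.28, and only Ccl2 with Ccl7 stayed over 0.8, at 0.93. Ccl17 with Ccl22 was then 0.23. Day 21 replicate 2 had the lowest level of its day in 9 of 10 members, and day 0 replicate 3 in 8 of 10. The share of all genes lowest in these libraries was not counted, and members that vary together are not separate observations. These correlations are descriptions over libraries that share depth and composition.

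**Figure D3:**
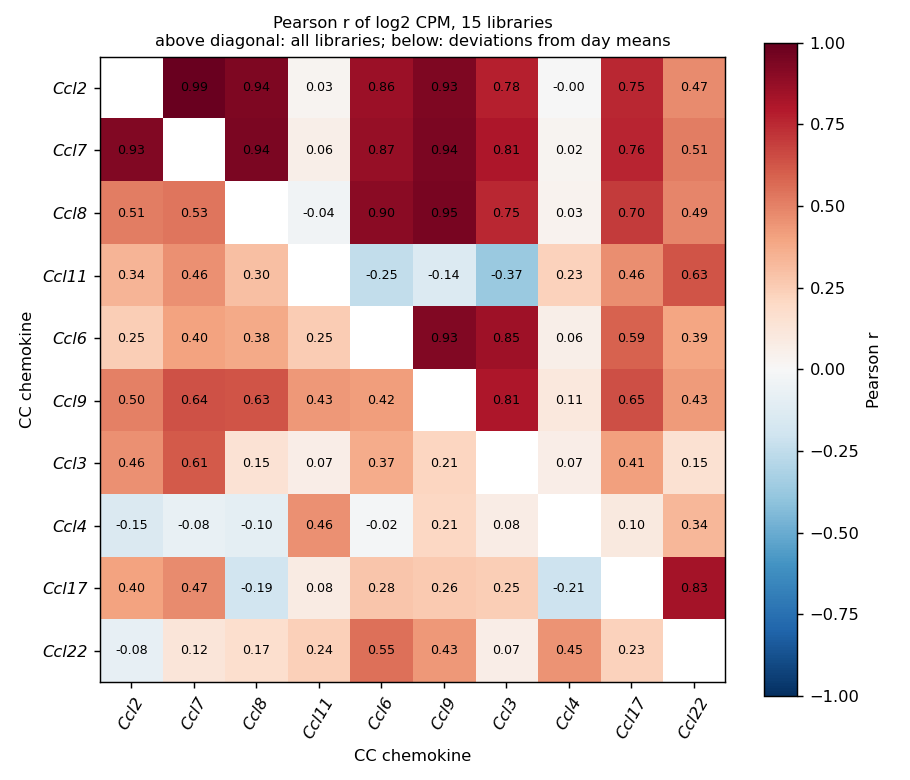
Pearson's r of log2 CPM for each pair of CC chemokines over 15 libraries, above the diagonal for all libraries and below it after removal of each day's mean. Ccl2 with Ccl7 is 0.99 above and 0.93 below, whereas Ccl17 with Ccl22 is 0.83 above and 0.23 below.

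For each member the 2 other genes with the most similar log2 CPM over the 15 libraries were listed from 13846 genes with a mean of at least 1 CPM. Ccl2 and Ccl7 had the same pair, Timp1 (r = 0.98 and 0.98), an inhibitor of matrix metalloproteinases, and Tubb3 (r = 0.98 and 0.98). Ccl6 was closest to Psap and Ctsd (both r = 0.98), a saposin precursor and a protease of lysosomes, and Ccl9 to Nxpe5 (r = 0.99) and the lysosomal protease Ctsb (r = 0.98). Ccl8 was closest to P2ry6 and Cd86 (both r = 0.98), a nucleotide receptor and a costimulatory protein of antigen-presenting cells. The others had lower values. Ccl17 was closest to Ckmt1 and Cs (both r = 0.94), Ccl22 to G3bp1 (r = 0.94) and H2afy (r = 0.93), Ccl3 to Traip and Tram2 (both r = 0.93), and Ccl11 to Pold2 and Arpin (both r = 0.87). Ccl4, which was not called, reached r = 0.76 with Phtf2 and 0.74 with Stambpl1.

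Of 14 CC chemokine receptors and atypical receptors, 13 were tested and 5 were called against day 0 on at least 1 day, where 33.5% of all tested genes were, so the count is near the background. The text describes 4 of them. Ccr1, the receptor of Ccl3, Ccl6 and Ccl9, had log2 fold changes of 0.39, 1.11 and 1.14, called at days 14 and 21 (adjusted p = 0.0137 and 0.0187, edgeR). Those calls were lost without day 14 replicate 1, and at day 21 without day 0 replicate 3, day 21 replicate 1 or day 21 replicate 3, with adjusted p from 0.0506 to 0.0846.

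Ccr2, the receptor of Ccl2 and Ccl7, was 92.0, 79.0, 31.1 and 30.3 CPM at day 0 and 154, 91.6, 105 and 64.6 CPM at day 7, and its log2 fold change of 0.84 ± 0.40 (SE, adjusted p = 0.138) did not pass (edgeR). At days 14 and 21 it was 0.30 and 0.16, also not called. Among libraries with a mitochondrial share over 3.5% the day 14 value was 1.19 and was called (adjusted p = 0.00394, edgeR). Ccr4, the receptor of Ccl17 and Ccl22, was 0.190 to 1.51 CPM at day 0 and 0.837 to 2.89 at day 7 (log2 fold change 1.36 ± 0.58 (SE, adjusted p = 0.0951), not called by edgeR). It was called at day 7 by limma voom (1.63, adjusted p = 0.0479) and without day 0 replicate 2 (2.15, adjusted p = 0.0173, edgeR). Over 19 alternatives the day 7 value of Ccr4 ran from 0.58 to 2.15. Ccr8 (0 to 51 counts a library) was not called on any day. Ccr3, the receptor of Ccl11, had 0 to 9 counts a library and was not tested, so a change in it was not detectable at this depth.

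3 of the called receptors do not signal chemotaxis in the usual way. Ackr1, which binds chemokines on venular endothelium, rose on all 3 days, from 0 to 0.647 CPM at day 0 to 3.41 to 7.41 at day 21, with log2 fold changes of 2.45, 2.85 and 3.92 (adjusted p = 0.00905, 0.00213 and 0.000287, edgeR). 20.4% of its 50-base stretches also occur in Cadm3, so its level is uncertain. Its day 7 value was 2.02 and not called in the fit that adjusts for mitochondrial share (adjusted p = 0.0614, edgeR). Over 20 alternatives the day 7 value of Ackr1 ran from 1.665 to 3.051. Ackr4, a scavenger of Ccl19, Ccl21 and Ccl25, fell by 1.79, 3.14 and 2.96 on the log2 scale (adjusted p = 0.0156, 0.000428 and 0.00158, edgeR). Ccrl2, a non-signalling receptor related to this family, fell by 0.87, 1.25 and 1.01 (adjusted p = 0.000313, 6.9e-06 and 0.000109, edgeR). Every later library of Ackr4 and Ccrl2 was below day 0. At day 7 Ackr4 was not called without day 7 replicate 2 (-1.56, adjusted p = 0.050, edgeR) or with adjustment for mitochondrial share (-1.61, adjusted p = 0.0998, edgeR). Nor was Ackr4 called in libraries under 2.5% mitochondrial share, 2 at day 0 and 4 at day 7 (-1.73, adjusted p = 0.0649, edgeR).

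**Figure D4:**
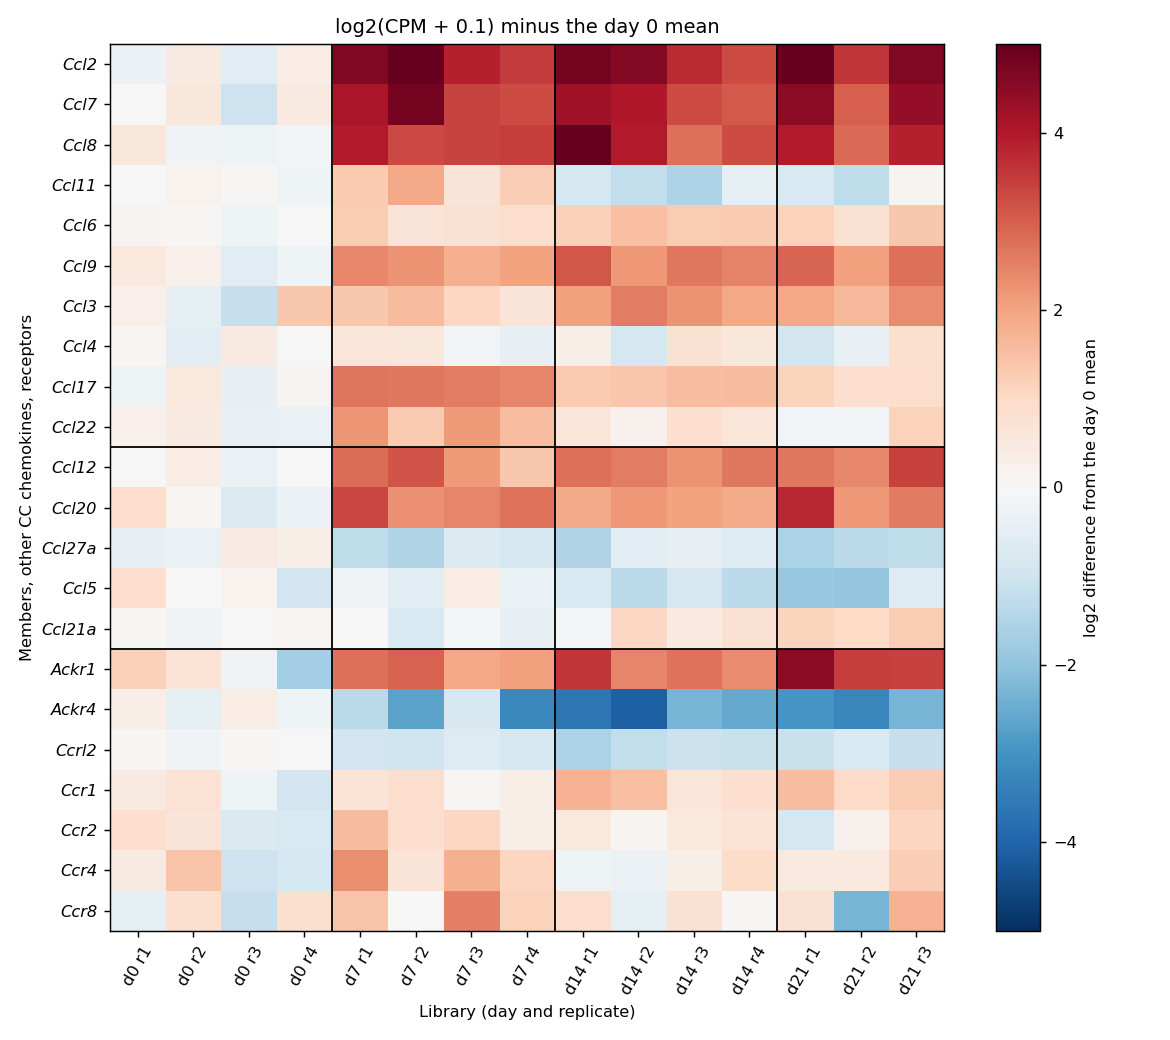
log2(CPM + 0.1) minus its day 0 mean in each library (columns, day and replicate) for the 10 members, 5 other CC chemokines and 7 receptors (rows, from top to bottom). Red is above and blue below the day 0 mean. Ccl12 and Ccl20 are red in all 11 later libraries and Ackr4 and Ccrl2 are blue in all of them.

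Of 11 further CC chemokines, 8 were tested and 5 were called against day 0 on at least 1 day (all genes: 33.5%). Ccl12, a Ccr2 ligand whose gene lies between Ccl11 and Ccl8, was 0.698 to 1.21 CPM at day 0 and 2.44 to 8.81, 4.74 to 6.67 and 5.29 to 10.8 CPM at the later days, with log2 fold changes of 2.58, 2.65 and 2.99 (adjusted p = 0.000276, 9e-05 and 5.94e-05, edgeR). Ccl20, the ligand of Ccr6, rose from 1 to 6 counts a library at day 0 to 14 to 57 later, with log2 fold changes of 3.12, 2.32 and 3.41 (adjusted p = 0.000721, 0.00358 and 0.00027, edgeR). Its day 21 value was 2.71 without day 21 replicate 1. Ccl5, a lymphocyte product, fell by 1.18 at day 14 and 1.49 at day 21 (adjusted p = 0.0192 and 0.0107, edgeR), and 2 libraries on each of those days were below day 0. The day 14 call was lost without day 0 replicate 1 or day 14 replicate 2 (adjusted p = 0.0701 and 0.0515, edgeR) and in libraries over 3.5% mitochondrial share (adjusted p = 0.120), and the day 21 value was -2.1 without day 21 replicate 3. Ccl21a was called higher at days 14 and 21 and Ccl27a lower on all 3 days, but 71.6% and 45.0% of their 50-base stretches are shared with gene copies, so both are uncertain. Of 20 alternatives, 13 lost the day 14 call of Ccl21a and 6 that of Ccl27a. The day 7 value of Ccl27a was -0.62 with adjustment for mitochondrial share (adjusted p = 0.146, edgeR) and -0.72 in libraries under 2.5% (adjusted p = 0.0883), neither called.

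Of 12 cytokines listed because they can act on chemokine genes in various cells, 8 were tested. Of these, 3 were called against day 0 on at least 1 day (all genes: 33.5%), again near the background. Il1b fell by 1.65, 1.35 and 2.02 on the log2 scale (adjusted p = 0.00198, 0.00373 and 0.000637, edgeR), and its day 14 value was -0.97 and not called in libraries over 3.5% mitochondrial share (adjusted p = 0.0819). Il6 had values of 1.78, 3.08 and 2.23 (adjusted p = 0.0554, 0.00198 and 0.0208, edgeR), and without day 0 replicate 4, where it was highest in its group, they were 2.90, 4.20 and 3.35. Il6 was also called at day 7 under 6 alternatives, among them that one (adjusted p = 0.0108, edgeR), DESeq2 (1.78, adjusted p = 0.0195), adjustment for mitochondrial share (3.03, adjusted p = 0.0171) and libraries under 2.5% (3.45, adjusted p = 0.0234). The set under 2.5% holds 2 day 0 and 4 day 7 libraries. It also leaves out day 0 replicate 4, so these alternatives are not separate from each other. Its day 21 call was lost without any other day 0 library or day 21 replicate 1. Il33, a type 2 alarmin, was 98.4 to 161 CPM at day 0, 244 to 338 at day 7, 28.1 to 215 at day 14 (2 libraries above day 0 and 2 below) and 17.8 to 62.8 at day 21. Its log2 fold change was 1.14 at day 7 (adjusted p = 0.0766, not called), -0.04 at day 14 (adjusted p = 0.958, not called) and -1.54 at day 21 (adjusted p = 0.0324, edgeR), and the day 21 call was lost without day 0 replicate 1 or 2 or day 21 replicate 1 or 2. At day 7 it was called with no filter, with only the compared groups and in libraries under 2.5% mitochondrial share (1.13, 1.12 and 0.93, adjusted p = 0.0313, 0.000487 and 0.00515, edgeR). Tnf, Il1a, Il4, Tslp and Csf2 were not called against day 0, and Ifng, Il5, Il13 and Il10 were too low to be tested.

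Marker lists of the cells that make or follow these chemokines were examined over the same days, where 8.78%, 12% and 12.4% of all tested genes were called higher than day 0 and 7.36%, 11.2% and 10.1% lower. The summed level of 10 monocyte and interstitial macrophage markers was 337 to 414 CPM at day 0, 863 to 1248 at day 7, 976 to 2228 at day 14 and 1031 to 1720 at day 21, and 7, 8 and 7 of the 10 (C1qa and Cd68 among them) were called higher. The monocyte marker Ly6c2 (log2 fold changes of 0.33, -0.27 and -0.32) and Cx3cr1 (1.08, 0.96 and 0.76) were not called on any day. The 8 alveolar macrophage markers, whose sums at day 7 overlapped day 0, added up to 886 to 1237, 707 to 1535, 1236 to 3818 and 1542 to 3155 CPM on those days. 0, 3 and 2 of them were called higher and 2, 1 and 2 lower. The 8 dendritic cell markers summed to 117 to 159, 136 to 218, 155 to 191 and 132 to 214 CPM, with 4, 2 and 2 called higher and 1 lower on each day. All markers of these 3 lists had counts in every library. Their part in the chemokine changes was not tested.

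The 5 eosinophil markers summed to 16.9 to 20.1 CPM at day 0, 3.92 to 7.58 at day 7, 2.95 to 14.8 at day 14 and 2.05 to 9.69 at day 21, and Prg2, Epx and Ear6 were at 0 in at least 1 library. 0, 1 and 0 of them were called higher and 1, 2 and 1 lower. Ear1 was lower on all 3 days (log2 fold changes of -1.985, -2.793 and -3.231) and Il5ra at day 14 (-2.278). Ear6 went the other way (1.05, 3.014 and 2.697, called at day 14), as did Prg2 (0.452, 1.59 and 1.178, not called). The fall of the sum is therefore not shared by all of these markers. The 7 neutrophil markers summed to 404 to 921 CPM at day 0 and 97.9 to 277, 137 to 469 and 91.1 to 181 CPM later, with 4, 2 and 5 called lower and Ly6g at 0 in at least 1 library. The 8 T cell markers summed to 25 to 42.2 CPM at day 0 and 25.8 to 66.6, 19.1 to 31.9 and 13.4 to 39.4 CPM later, with 1, 0 and 0 called higher and 0, 1 and 0 lower. The 6 fibroblast markers summed to 1309 to 1987 CPM at day 0 and 4820 to 6073, 3584 to 13120 and 4816 to 9437 CPM later, with 4 called higher on each day. The 9 lung markers summed to 51190 to 66150 CPM at day 0 and 10640 to 15210 at day 21, with 2, 5 and 5 called lower. The 5 blood markers summed to 1300 to 4349, 498 to 1388, 646 to 1706 and 398 to 703 CPM on the 4 days, with 3, 5 and 5 called lower. The 7 cardiac muscle markers summed to 27.6 to 259.5, 30.1 to 607, 22.5 to 41.2 and 17.7 to 722 CPM, with 0, 2 and 0 called lower. The 5 adipose markers summed to 19.1 to 51.5, 7.64 to 91.4, 1.0 to 3.63 and 0.740 to 2.53 CPM, with 1, 4 and 3 called lower. Day 7 replicate 4 was the highest library of its day in the blood, cardiac muscle and adipose sums. The share of counts from 16 mitochondrial genes was 2.28% to 4.22% at day 0, 2.03% to 2.15% at day 7, 2.1% to 4.14% at day 14 and 2.66% to 4.01% at day 21. The part of these values in the chemokine changes was not tested, apart from the fits with the mitochondrial share given above.

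**Figure D5:**
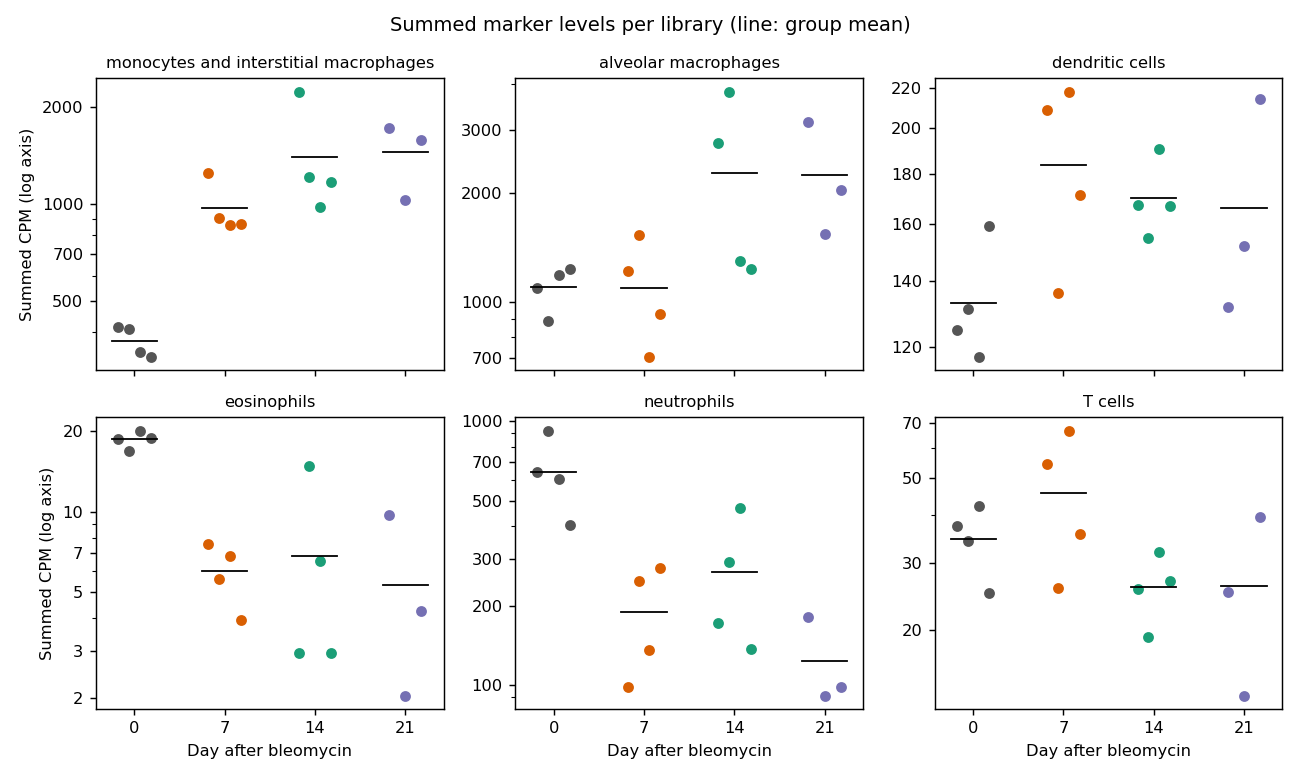
Summed CPM (log axis) of 6 marker lists in each library by day after bleomycin, with points for libraries and a line for the group mean. Monocyte and interstitial macrophage markers lie at 337 to 414 CPM at day 0 and at 863 CPM or above later. The eosinophil and neutrophil sums are highest at day 0, apart from one overlapping day 14 library for neutrophils. Single eosinophil markers differ in direction.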

How the data were processed

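Whole-lung RNA was extracted and sequenced in 15 libraries. The deposited table holds read counts per Ensembl gene, which the authors made with HISAT2 2.1.0 and HTSeq 0.6.0 on GRCm38 according to the submitters' processing notes, which also name DESeq2 1.40.2. The annotation release and the strand setting are not given in the sources used here. The counts are whole reads, not normalized, and every sample column was used (0 left out). Of 33340 IDs, 33267 matched GENCODE M21 and the remaining rows held 0.00889% of counts. Library totals were 15652008 to 18020661, and no 2 replicates agreed within sampling noise (lowest chi-square per degree of freedom 10.1).

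Genes passing filterByExpr (17457) were fitted over all 4 groups with edgeR 4.0.16 (R 4.3.3; TMM factors; quasi-likelihood test; Benjamini-Hochberg adjustment), and a gene was called at an adjusted p under 0.05 with a fold change above 1.5. Log2 CPM for correlations used a prior count of 2. The scripts were tested on simulated data. Alternatives were DESeq2 1.42.0, limma voom (limma 3.58.1), other size factors and filters, only the groups compared, a replicate block, the log2 mitochondrial share as a covariate, glmTreat at 1.5-fold, libraries with a mitochondrial share under 2.5% (day 7) or over 3.5% (day 14), and leaving out each library. Named genes were the 10 members in full, of the receptor, chemokine and cytokine lists each gene called against day 0 plus Ccr1, Ccr2, Ccr3, Ccr4 and Ccr8, and for likeness the 2 genes of highest r per member without unnamed gene models and antigen receptor segments. Some genes of these lists are not reported here. The members and lists were chosen with earlier results of these data known. Stretches of 50 bases were compared between transcripts to find shared sequence. Counting error alone is not the spread tested here.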

Additional observations from a re-analysis of the deposited data

Results flagged for a closer look

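Ccl8 at day 0 was 2.01 CPM in replicate 1, while the other 3 libraries of that day lay between 1.08 and 1.17 CPM. A single sample stood this far from the rest in 1 of 81 groups of 4 examined, and chance alone flags about 1 in 20 groups. Leaving that library out moved the day 7 value of Ccl8 from 3.60 to 3.82 on the log2 scale.

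The effect of bleomycin differed between days in 3 members by a test of the difference itself (edgeR). From day 7 to day 14 the log2 difference was -2.41 for Ccl11, -1.14 for Ccl17 and -1.28 for Ccl22. From day 7 to day 21 it was -1.91, -1.66 and -1.43 in the same order. All libraries of days 14 and 21 were below all of day 7 in these 3 genes. The same libraries gave the calls, so this separation adds no support to them. The share of all genes that separate in this way was not counted.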

How the results depend on the processing

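The number of members called was 6 to 9 at day 7 (8 as reported), 7 or 8 at day 14 (8), 6 or 7 at day 21 (7) and 2 to 4 between later days (3) over all alternatives, and 4 to 6 receptors (5) and 4 to 6 other CC chemokines (5) were called. Of 1667 log2 fold changes of named genes recomputed under an alternative, 1548 kept their direction and side of the threshold, 76 lost their call, 14 gained one and 29 changed sign, and none of the 29 had been called. The sign changed for Ccr1 at day 7 with mitochondrial share as covariate (-0.010) and in libraries under 2.5% (-0.078), for Il33 at day 14 in libraries over 3.5% (0.50), for Ccr4 at day 14 with limma voom (0.26), the covariate (0.29) and libraries over 3.5% (1.67), for Ccr8 at day 14 with the replicate block (-0.091) and for Ccr8 at day 21 with limma voom (-0.41). Over fits without 1 library the values ran from -0.53 to 0.028 for Ccl5 at day 7. At day 14 they ran from -0.43 to 0.27 for Il33, -0.46 to 0.70 for Ccr4 and -0.14 to 0.49 for Ccr8. At day 21 they ran from -0.77 to 0.29 for Ccl4, -0.24 to 0.58 for Ccl22, -0.44 to 0.49 for Ccr2 and -0.48 to 1.19 for Ccr8. Between days 14 and 21 they ran from -0.031 to 0.77 for Ccl11 and -0.76 to 0.065 for Ccl22. The cause was not tested.

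Against the 1.5-fold threshold itself (glmTreat), Ccl6 and Ccl11 at day 7 (adjusted p = 0.121 and 0.0879), Ccl11 at day 14 (0.221) and Ccl17 at day 21 (0.114) were not called, and between days Ccl17 and Ccl22 at day 14 and Ccl11 and Ccl22 at day 21 were not called against day 7. Of the other lists glmTreat did not call Ackr4, Ccrl2 and Ccl27a at day 7, Ccr1, Ccl5, Ccl21a and Ccl27a at day 14, and Ccr1, Ccl5, Il6 and Il33 at day 21. Ccl11 at day 14 also missed the threshold with limma voom (0.0520) and in libraries over 3.5% (0.143). With only the compared groups fitted, Ccl3 was called between days 7 and 14. Over all genes, 2818 were called at day 7, 54.4% of them higher, against 1269 (68.3% higher) with mitochondrial share as covariate and 703 (74.7% higher) with glmTreat, and 4365 with no fold change threshold. At day 14 glmTreat called 1755 genes against 4040, and 1754 against 3924 at day 21. Between days 7 and 14, 1048 genes were called, against 1641 by DESeq2, 218 with the covariate and 14 by glmTreat, and between days 7 and 21, 1665 against 942 with the covariate and 176 by glmTreat. Between days 14 and 21 0 were called by edgeR, 106 by DESeq2 and 37 with no filter. Of 24 member differences between later days that were not called, 14 changed sign under at least 1 alternative. Low counts limit Ccl2, Ccl7, Ccl4 and Ccl11.

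The replicate numbers were used as names only, since no label says that they mark pairs and not every pair of libraries correlated. The correlation of deviations over 21 same-numbered pairs ran from -0.24 to 0.40, with 8 over 0.1, and 17 of 42 comparisons, each among 3 or 4 libraries, were highest for the own number. With the replicate block 8, 7 and 7 members were called at days 7, 14 and 21, and Ccl11 at day 14 was not called (-1.05, adjusted p = 0.0541, edgeR).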
